A study of Mus musculus with 9 samples.

Results

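The genes described here are 10 genes of MHC class I and of antigen loading, H2-K1, H2-D1, H2-T23, H2-M3, B2m, Tap1, Tap2, Tapbp, Nlrc5 and Erap1, out of 15184 genes listed in an RNA-Seq table of mouse embryonic fibroblasts (MEFs). They were chosen by name, and each name occurred once in the table. Of the 10 genes, 9 were lower in both groups of MEFs labelled Hnrnpk_SAM than in the empty vector MEFs. The smallest change was in H2-M3, which fell by 18.4% in SAM2, and the largest was in H2-K1, which fell by 67.9% in SAM1. The exception was Nlrc5, the gene of the transactivator of class I genes, which was higher in SAM1 and was not called in SAM2.

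Class I molecules consist of a heavy chain and the light chain β2-microglobulin, and they hold a short peptide at the cell surface for inspection by CD8+ T cells and natural killer cells. The peptides are cut by the proteasome in the cytosol, carried into the endoplasmic reticulum (ER) by the transporter TAP, shortened there by the aminopeptidase ERAP1, and fitted into the heavy chain with the help of tapasin, calreticulin and ERp57. Almost all nucleated cells, fibroblasts among them, make class I molecules at a basal level, and interferons raise the transcription of most of these genes together. NLRC5 takes part in that transcription by joining the factors RFX, CREB/ATF and NF-Y on a module of short boxes shared by class I promoters.

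PolyA+ RNA was measured in 9 libraries, 3 of empty vector MEFs and 6 labelled with the genotype Hnrnpk_SAM, of which 3 are titled SAM1 and 3 are titled SAM2. The Hnrnpk_SAM cells derived from WT MEFs transduced with lentiMPHv2 and lentiSAMv2 and selected with blasticidin and hygromycin. These vectors bring an inactive Cas9 with transcriptional activators to a site set by a single guide RNA (sgRNA). The Hnrnpk_SAM cells were described as carrying sgRNAs against Hnrnpk, used independently of each other. For the control the study named lentiSAMv2 with a nontargeting sgRNA. Its methods do not state whether the control also had lentiMPHv2 and both selections. The study printed the same sequence for the sgRNA named sgHnrnpk2 and for the nontargeting sgRNA, so its text does not tell these apart. The surviving cells were not described as clones, and neither the sgRNA behind each of the titles SAM1 and SAM2 nor the embryos behind each library were given in the sources used here.

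The deposited values were read counts per gene divided by a size factor for each library, called normalized counts below. The libraries held from 41759636 to 49026626 reads on the listed genes (median 46350100), and values within a group correlated across genes with r from 0.9954 to 0.9965. Whether libraries of a group came from separate cultures was not given, so the p-values below measure the spread between these libraries, which may be technical. Hnrnpk, the targeted gene, had 25058, 26098 and 26164 normalized counts in empty vector MEFs, 24102, 24045 and 23619 in SAM1, and 26608, 26859 and 26221 in SAM2. Its level fell by 7.17% in SAM1 (adjusted p = 0.00252) and did not pass the test in SAM2 (adjusted p = 0.159), so the mRNA did not set the libraries labelled Hnrnpk_SAM apart from the control in the labelled direction, and every direction below refers to these labels. In bulk RNA, fewer expressing cells and less RNA per cell cannot be told apart.

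The fibroblast identity of the libraries was checked with a list of 13 markers, all of which were listed, with a summed level from 1080986 to 1176741 normalized counts in empty vector MEFs, 888512 to 951305 in SAM1 and 1195731 to 1235417 in SAM2. None of 9 lymphocyte markers was listed. Of 13 markers of macrophages and other myeloid cells 5 were listed, with sums of 1512 to 1552, 2528 to 2681 and 1769 to 1784, and Ptprc, Adgre1 and Tyrobp were not among them. The myeloid sums were carried by Cd14, with means of 828, 1644 and 1046, and Cd68, with 375, 527 and 564. Csf1r was at 225, 252 and 111, Lyz2 at 78.2, 181 and 45.3, and Mpeg1 at 27.8, 10.4 and 12.4. Of 7 endothelial markers 5 were listed, with sums of 428 to 468, 4922 to 5343 and 907 to 977, carried by Kdr, whose mean was 211, 4693 and 536 normalized counts, while Vwf was at 117, 340 and 270, Cdh5 at 77.6, 64.7 and 51.2, Tek at 35.6, 29 and 67.1, and Pecam1 at 12.9, 29.5 and 12. Of 7 epithelial markers 3 were listed, with sums of 1901 to 2045, 3529 to 3963 and 2622 to 2711, carried by Krt19. The myeloid, endothelial and epithelial sums were highest in SAM1, where 8 of the 10 genes were lowest with no overlap. Of all genes, 37.1% had SAM1 wholly below empty vector and 34.8% had SAM1 wholly below SAM2. The part of these marker sums in the results was not tested.

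Of the 10 genes, 7 lie on chromosome 17 in and near the mouse MHC, on GRCm39 with GENCODE vM39. From the centromeric side they are Tapbp (chr17:34134873-34148267, + strand), H2-K1 (chr17:34214987-34219321, − strand), Tap1 (chr17:34405996-34416199, + strand), Tap2 (chr17:34422501-34435829, + strand), H2-D1 (chr17:35481691-35486475, + strand), H2-T23 (chr17:36340229-36345571, − strand) and H2-M3 (chr17:37581106-37585384, + strand). The others are B2m (chr2:121977957-121983594, + strand), Nlrc5 (chr8:95160984-95253900, + strand) and Erap1 (chr13:74787687-74841320, + strand).

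The promoters are shown because class I promoters share a module of transcription factor boxes, and a link of these boxes to the falls was not tested. RefSeq promoters of 300 bases, from 250 before to 50 after the start, were given for 8 of the 10 genes, each with 1 exact match on GRCm39, and Tap2 and Nlrc5 had no entry. Of the short boxes searched, the letters TGACG, the core bound by CREB/ATF, followed on the same strand by ATTGG, the reverse of the CCAAT box bound by NF-Y, with 5 to 30 bases between them, occurred in 4 of the 8 promoters and in 1.58% of 11165 promoters. In all 4 the gap was 20 bases, a gap noticed in these sequences and found on either strand in 19 of the 11165 promoters (0.17%), these 4 among them. Since the gap was taken from these 4 promoters, the share is a description and not a test. The 4 modules are printed 5′ to 3′ on the strand of the gene, with both boxes in capitals:
H2-K1: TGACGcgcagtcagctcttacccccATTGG
H2-D1: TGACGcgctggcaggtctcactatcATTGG
H2-M3: TGACGcttctccaattcccattctaATTGG
B2m: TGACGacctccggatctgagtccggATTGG

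These modules began 55 bases before the RefSeq start of H2-K1 (the downstream one of its 2 starts, chr17:34219333-34219362, − strand), 101 before that of H2-D1 (chr17:35481969-35481998, + strand), 46 before that of H2-M3 (chr17:37581079-37581108, + strand) and 78 before that of B2m (chr2:121978090-121978119, + strand). The H2-D1 and B2m modules lie within exons of GENCODE transcripts that begin further upstream, the last 3 bases of the H2-M3 module lie in its GENCODE gene model, and the H2-K1 module lies outside that of H2-K1.

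The 220 bases before the start are printed for the same 4 genes, since they hold further boxes. Capitals mark TGACG and ATTGG on either strand (CGTCA and CCAAT on the reverse) and, on either strand, the κB letters GGGNATTNCC, the interferon-stimulated response element (ISRE) letters GAAANNGAAA and the interferon-γ activated site (GAS) letters TTCNNNGAA. The letters were matched exactly, so a site that differs from them stays in lower case and is not counted. An example is tttcacttct in H2-K1, H2-D1 and H2-M3, which is close to the ISRE letters in reverse. H2-K1 and H2-D1 share a κB match, the kind of site bound by NF-κB, H2-M3 holds a GAS match, and B2m holds an ISRE match, the kind bound by IRF1:
H2-K1 (chr17:34219308-34219527, − strand): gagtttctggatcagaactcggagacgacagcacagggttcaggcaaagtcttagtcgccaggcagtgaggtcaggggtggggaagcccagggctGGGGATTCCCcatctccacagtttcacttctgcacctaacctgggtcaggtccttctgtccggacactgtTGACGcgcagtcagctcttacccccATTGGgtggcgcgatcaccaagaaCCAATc
H2-D1 (chr17:35481850-35482069, + strand): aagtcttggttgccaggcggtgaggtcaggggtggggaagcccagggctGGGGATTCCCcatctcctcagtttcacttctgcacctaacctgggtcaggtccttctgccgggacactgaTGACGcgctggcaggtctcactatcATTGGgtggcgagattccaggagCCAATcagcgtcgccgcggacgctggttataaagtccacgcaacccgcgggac
H2-M3 (chr17:37580905-37581124, + strand): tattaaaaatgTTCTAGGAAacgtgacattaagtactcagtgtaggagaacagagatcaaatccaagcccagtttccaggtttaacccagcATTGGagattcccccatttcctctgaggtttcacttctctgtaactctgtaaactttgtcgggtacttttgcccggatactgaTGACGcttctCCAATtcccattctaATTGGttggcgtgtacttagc
B2m (chr2:121977948-121978167, + strand): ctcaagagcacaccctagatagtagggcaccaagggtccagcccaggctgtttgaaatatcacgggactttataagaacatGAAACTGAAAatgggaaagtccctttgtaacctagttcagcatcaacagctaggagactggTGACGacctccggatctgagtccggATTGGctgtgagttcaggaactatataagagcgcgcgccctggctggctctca

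The ISRE letters occurred in 3 of the 8 promoters (2.94% of all promoters), the κB letters in 2 (0.761%), the GAS letters in 1 (6.9%), TGACG in 5 (31%) and ATTGG in 7 (39%). The other ISRE matches were in H2-T23 and Erap1, printed with the match in capitals on the strand of the gene, where it reads in reverse:
H2-T23 (chr17:36343694-36343733, − strand): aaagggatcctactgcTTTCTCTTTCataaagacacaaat
Erap1 (chr13:74787942-74787982, + strand): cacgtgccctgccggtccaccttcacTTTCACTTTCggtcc

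Both of these stretches lie in exons of GENCODE transcripts that begin further upstream. A match to letters is a description of the sequence, and no binding was measured. The Tap1 promoter (chr17:34406280-34406579, + strand) lies on nearly the same bases as that of Psmb9 on the other strand (chr17:34406255-34406554), the gene of an immunoproteasome subunit whose values are given with the proteasome below.

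The normalized counts were tested as log2(value + 1) with limma and Benjamini-Hochberg adjustment over all 15184 genes, and a gene was called where its adjusted p was below 0.05. With all 6 libraries labelled Hnrnpk_SAM set against the 3 of empty vector, 9 of the 10 genes were called lower, none was called higher, and Nlrc5 was not called. Calls were common in this comparison, since 27% of all genes were called lower and 26.8% higher. In the same 9 genes every library labelled Hnrnpk_SAM lay below every empty vector library, which held for 27.2% of all genes. Against empty vector, SAM1 had 9 of the genes lower and 1 higher, against a background of 36.9% lower and 37.3% higher. SAM2 had 9 lower and none higher, against 35.3% lower and 35.2% higher. The median log2 fold change of the 10 genes was −0.78 for all 6 libraries, −1.02 for SAM1 and −0.63 for SAM2, and that of all genes was 0.009, 0.009 and −0.001. SAM1 and SAM2 were compared with the same 3 control libraries.

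Scaling every library to the same sum moved the median of all genes to 0.131 in the comparison of 6 with 3, to 0.150 in SAM1 and to 0.101 in SAM2. It changed the split of calls over all genes from 4076 higher and 4103 lower to 5344 and 2838 in the comparison of 6 with 3. In SAM1 the split went from 5667 and 5608 to 7232 and 4101, and in SAM2 from 5340 and 5359 to 6555 and 4131. The 9 genes were called lower under that scaling too.

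**Figure D1:**
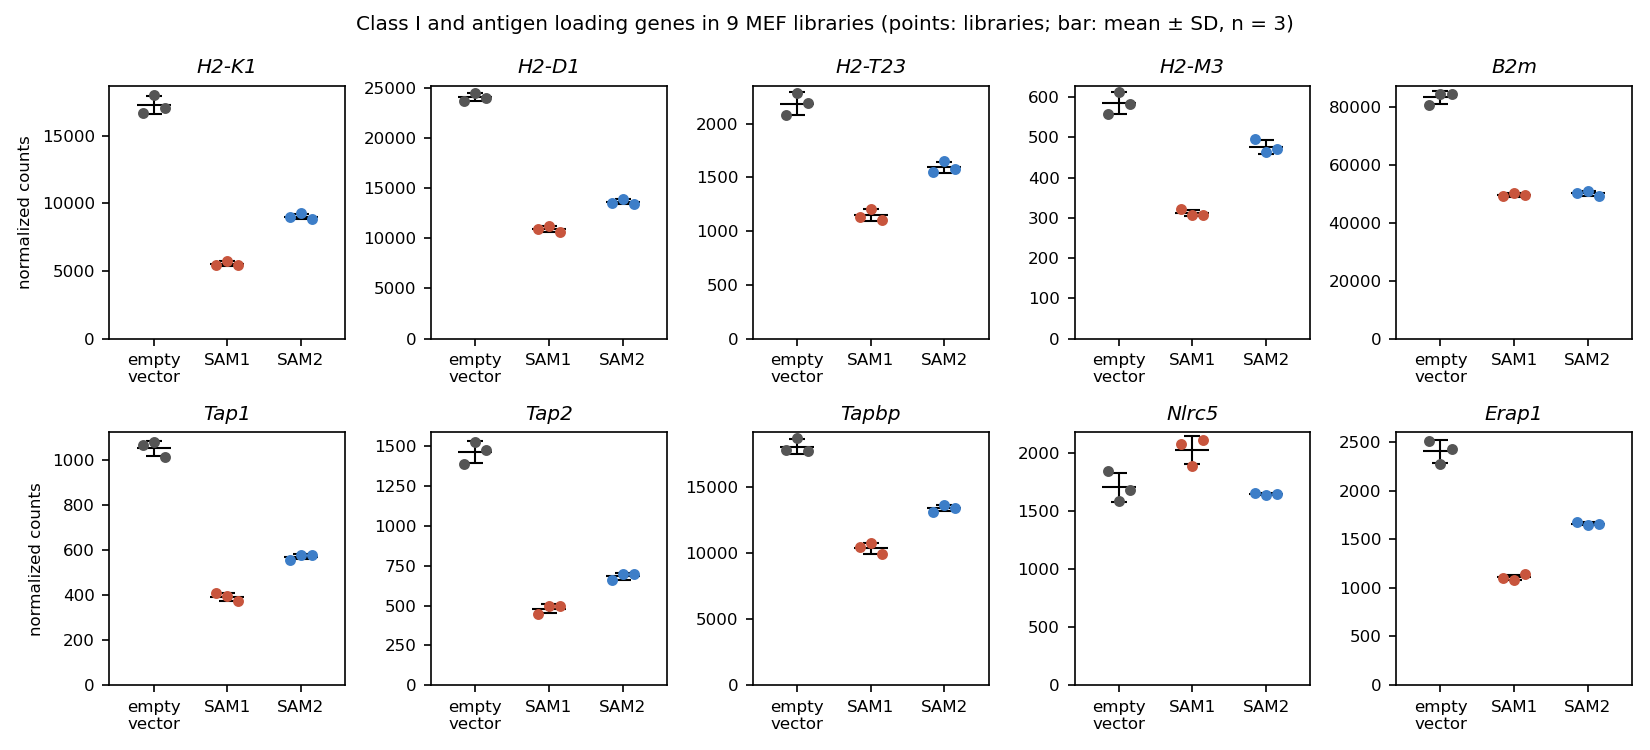
Normalized counts (y axis, linear, from 0, with a scale for each gene) of the 10 genes in the 3 empty vector, 3 SAM1 and 3 SAM2 libraries. Points are libraries and bars are the mean ± SD (n = 3). In 8 genes the 3 groups are separate, with SAM1 lowest and empty vector highest. Of all genes, 36.8% had SAM2 wholly below empty vector and 34.8% had SAM2 wholly above SAM1. SAM1 and SAM2 overlap in B2m, and SAM1 lies above the others in Nlrc5.

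The classical heavy chains H2-K1 and H2-D1, which present peptides to CD8+ T cells, fell in both groups. H2-K1 had 16713, 18048 and 17078 normalized counts in empty vector MEFs, 5417, 5772 and 5429 in SAM1, and 8961, 9253 and 8841 in SAM2. The 3 groups did not overlap, and SAM1 was the lowest. The log2 fold change was −1.64 in SAM1 (SE 0.0361, adjusted p = 2.61e-13), a 3.12-fold fall, and −0.94 in SAM2 (SE 0.0361, adjusted p = 8.76e-11), a 1.92-fold fall.

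H2-D1 had 23747, 24545 and 24057 normalized counts in empty vector MEFs, 10945, 11210 and 10599 in SAM1, and 13595, 13933 and 13490 in SAM2. Its groups did not overlap either, and they stood in the same order as those of H2-K1. Its log2 fold change was −1.14 in SAM1 (SE 0.0287, adjusted p = 8.42e-13) and −0.82 in SAM2 (SE 0.0287, adjusted p = 3.54e-11). Reads of heavy chain genes can be hard to place, because 15.5% of the 43-base windows of H2-K1 transcripts and 16% of those of H2-D1 also occur in transcripts of other H2 genes, and the authors allowed up to 20 hits for a read. Shared with any other gene, overlapping genes on the other strand included, were 27.6% for H2-K1, 32.6% for H2-D1 and 23.5% for H2-T23. How such reads were counted was not given in the sources used here.

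The nonclassical heavy chains H2-T23 and H2-M3 had smaller fold changes than H2-K1 and H2-D1 in both groups. H2-T23 encodes Qa-1, which holds leader peptides of other class I molecules for the CD94-NKG2 receptors of natural killer cells. It had 2078, 2287 and 2197 normalized counts in empty vector MEFs, 1134, 1210 and 1101 in SAM1, and 1553, 1652 and 1582 in SAM2. All SAM1 libraries lay below all SAM2 libraries, and these below all empty vector libraries. On the log2 scale H2-T23 changed by −0.93 in SAM1 (SE 0.0473, adjusted p = 8.97e-10) and −0.45 in SAM2 (SE 0.0473, adjusted p = 1.56e-06).

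H2-M3 presents N-formylated peptides of bacteria and mitochondria. It had 557.5, 612.4 and 584.1 normalized counts in empty vector MEFs, 320.8, 306.1 and 307.6 in SAM1, and 496.5, 463.6 and 470.4 in SAM2. The groups were separate, with SAM2 nearer to empty vector than to SAM1. The log2 fold change was −0.91 in SAM1 (SE 0.0566, adjusted p = 7.52e-09) and −0.29 in SAM2 (SE 0.0566, adjusted p = 4.26e-04). With SAM1 and SAM2 in 1 group it was −0.60 (adjusted p = 0.0193), and this call was lost without empty vector replicate 2 (−0.57, adjusted p = 0.0699) and without empty vector replicate 3 (−0.60, adjusted p = 0.0587).

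B2m, the light chain that most class I heavy chains need to fold, had 80699, 84393 and 84432 normalized counts in empty vector MEFs, 49050, 50223 and 49369 in SAM1, and 50242, 50908 and 49115 in SAM2. SAM1 and SAM2 overlapped, and both lay below empty vector. On the log2 scale B2m changed by −0.75 in SAM1 (SE 0.0282, adjusted p = 4.49e-11) and −0.73 in SAM2 (SE 0.0282, adjusted p = 8.79e-11). Under quantile normalization the falls were smaller, −0.35 and −0.42, and they were called. None of the 43-base windows of B2m transcripts occurred in transcripts of another gene.

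TAP is a pair of subunits, and both had larger fold changes than H2-T23 and H2-M3 in SAM1 and in SAM2. Tap1 had 1067, 1079 and 1014 normalized counts in empty vector MEFs, 407.2, 394 and 373.1 in SAM1, and 556.8, 577.7 and 577.1 in SAM2. Tap2 had 1391, 1527 and 1478 in empty vector MEFs, 449, 499.7 and 494.1 in SAM1, and 659.7, 698.2 and 695.9 in SAM2. In both genes the 3 groups were separate and SAM1 was the lowest. The log2 fold change of Tap1 was −1.43 in SAM1 (SE 0.0506, adjusted p = 2.50e-11) and −0.88 in SAM2 (SE 0.0506, adjusted p = 4.22e-09). That of Tap2 was −1.61 in SAM1 (SE 0.0548, adjusted p = 1.66e-11) and −1.10 in SAM2 (SE 0.0548, adjusted p = 1.09e-09), the largest fall of the 10 genes in SAM2.

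Tapbp encodes tapasin, which tethers empty class I molecules to TAP. It had 17775, 18684 and 17692 normalized counts in empty vector MEFs, 10418, 10734 and 9902 in SAM1, and 13126, 13609 and 13417 in SAM2, and the groups did not overlap. Its log2 fold change was −0.80 in SAM1 (SE 0.0342, adjusted p = 1.47e-10) and −0.43 in SAM2 (SE 0.0342, adjusted p = 1.07e-07). Tapbp overlaps exons of the neighbouring genes Zbtb22 and Gm19412, and 42.6% of its 43-base windows also occur in transcripts of other genes, the largest share among the 10 genes, so its counts are uncertain. Tap1 shares 10.6% of its windows with Psmb9, which it overlaps on the other strand. The library kit keeps the strand, and the strand setting of the counting was not given in the sources used here.

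Erap1, the ER aminopeptidase that trims peptides to the length class I molecules hold, had 2518, 2280 and 2428 normalized counts in empty vector MEFs, 1107, 1078 and 1139 in SAM1, and 1678, 1644 and 1663 in SAM2. The groups were separate in the same order as those of the heavy chains. On the log2 scale Erap1 changed by −1.12 in SAM1 (SE 0.0414, adjusted p = 3.72e-11) and −0.53 in SAM2 (SE 0.0414, adjusted p = 8.58e-08). It shares 9.49% of its windows with Cast on the other strand.

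Nlrc5 did not fall with the other genes described here. It had 1846, 1592 and 1680 normalized counts in empty vector MEFs, 2084, 1892 and 2115 in SAM1, and 1654, 1640 and 1653 in SAM2. The SAM1 libraries lay above all others, and the SAM2 libraries lay within the range of empty vector. The log2 fold change was 0.25 in SAM1 (SE 0.0545, adjusted p = 9.48e-04). In SAM2 it was −0.046 (95% interval −0.16 to 0.07, adjusted p = 0.466), and its sign turned without empty vector replicate 1 (0.012) and with libraries scaled to the same sum (0.057). With all 6 libraries it was 0.10 (adjusted p = 0.414). The ratio of Tap1 to Nlrc5 normalized counts was 0.62 ± 0.052 (SD, n = 3) in empty vector MEFs, 0.193 ± 0.016 in SAM1 and 0.346 ± 0.0082 in SAM2. Only 0.424% of its windows occur in another gene, the antisense 9330175E14Rik.

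The size of the change differed between SAM1 and SAM2 for 9 of the 10 genes, by the test of SAM2 against SAM1. In 8 of them SAM2 was higher than SAM1, against 31.1% of all genes, and in 1, Nlrc5, it was lower, against 29.2%. The difference on the log2 scale was 0.70 for H2-K1, 0.61 for H2-M3, 0.58 for Erap1, 0.54 for Tap1, 0.51 for Tap2, 0.48 for H2-T23, 0.37 for Tapbp and 0.32 for H2-D1, with adjusted p from 3.16e-09 (H2-K1) to 3.91e-06 (Tap2). For Nlrc5 it was −0.30 (adjusted p = 3.93e-04). For B2m it was 0.016 (95% interval −0.05 to 0.08, adjusted p = 0.652), and under quantile normalization it was −0.068 (adjusted p = 0.0465). In the values as deposited, no difference between SAM1 and SAM2 could thus be detected in the light chain. The largest difference among the 10 genes was 62.8%, in H2-K1.

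**Figure D2:**
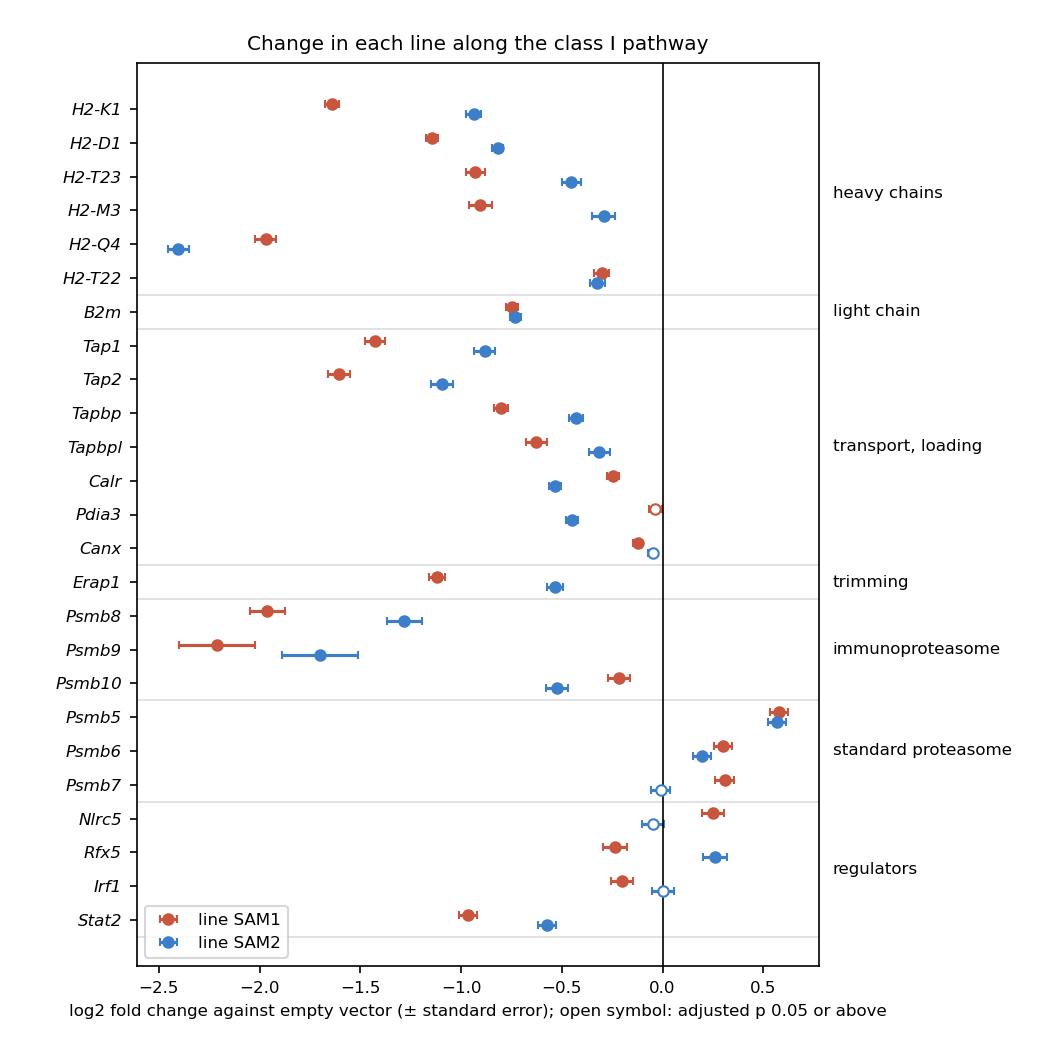
Log2 fold change against empty vector (x axis, ± standard error of the limma fit) of the 10 genes and 15 further genes of the class I pathway (y axis, grouped by role), in SAM1 and SAM2. Filled symbols mark an adjusted p below 0.05 and open symbols the others. SAM1 lies further to the left than SAM2 in 8 of the 10 genes, both lie near −0.74 in B2m, and the standard proteasome subunit Psmb5 lies at 0.58 and 0.57.

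Levels were compared between genes only per length, as normalized counts per kilobase of merged exons. In empty vector MEFs B2m stood first with 39494 ± 1020 (SD, n = 3), followed by H2-D1 with 8060 ± 134, H2-K1 with 5425 ± 217, Tapbp with 4094 ± 125 and H2-T23 with 638 ± 30.6. H2-M3, Tap2 and Erap1 followed with 321 ± 15.1, 307 ± 14.4 and 297 ± 14.8, which overlapped library by library. Nlrc5 lay between 187.5 and 217.3, and Tap1 had 175 ± 5.74, the lowest, but with the longest transcript as the length Nlrc5, at 225 ± 17, stood below Tap1, at 269 ± 8.82. In SAM1 and SAM2 H2-K1, at 1739 ± 63.3 and 2831 ± 66.5, stood below Tapbp, at 2348 ± 95.2 and 3036 ± 55.1, but with the longest transcript as the length H2-K1 stood above Tapbp in every group, within their spread in SAM1. In SAM1 Nlrc5 stood in the sixth place with either length, at 239 ± 14.2 per kilobase of merged exons.

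The unequal falls changed the proportions among the genes. H2-K1 normalized counts per H2-D1 normalized count were 0.704, 0.735 and 0.71 in empty vector MEFs, 0.495, 0.515 and 0.512 in SAM1, and 0.659, 0.664 and 0.655 in SAM2, with no overlap. B2m per summed H2-K1 and H2-D1 was 1.99, 1.98 and 2.05 in empty vector MEFs, 3, 2.96 and 3.08 in SAM1, and 2.23, 2.2 and 2.2 in SAM2, so the light chain fell less than the classical heavy chains, most of all in SAM1. Tapbp per Tap2 was 12.3 ± 0.41 (SD, n = 3) in empty vector MEFs, 21.6 ± 1.6 in SAM1 and 19.6 ± 0.31 in SAM2. Tap1 per Tap2 was 0.72 ± 0.042, 0.817 ± 0.08 and 0.834 ± 0.0091, and the SAM1 libraries overlapped those of both other groups. Summed over 15 listed heavy chain genes on chromosome 17, the normalized counts were 47137 to 49513 in empty vector MEFs, 20208 to 21405 in SAM1 and 26736 to 27828 in SAM2, of which H2-K1 and H2-D1 made up 85.8% to 86%, 79.3% to 79.5% and 83.3% to 83.5%.

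The rest of the pathway was followed with lists of genes by role, chosen as described under the methods. All counts for these lists in the comparison of 6 with 3 libraries stand against 27% of all genes called lower and 26.8% called higher. Of 13 listed other class I heavy chain genes, 1 was called higher and 2 lower in the comparison of 6 with 3 libraries, with a median log2 fold change of −0.02. H2-Q4, a heavy chain gene of this list, had 1330, 1356 and 1257 normalized counts in empty vector MEFs, 322.7, 349.6 and 332 in SAM1, and 248.2, 247.6 and 246.8 in SAM2. Unlike H2-K1 and H2-D1, it was lower in SAM2 than in SAM1 (SAM2 minus SAM1 −0.43, adjusted p = 1.40e-05), and its log2 fold change against empty vector was −1.97 in SAM1 and −2.40 in SAM2. H2-T22, a ligand of some γδ T cells, had −0.30 in SAM1 and −0.33 in SAM2. H2-M1 was at 20.46, 3.151 and 2.336 normalized counts in empty vector MEFs, 164.2, 190.6 and 182.6 in SAM1, and 33.63, 31.53 and 35.26 in SAM2, and with as few as 2 reads in a control library its fold change depends on the pseudocount. Heavy chain reads can be shared between these genes, as described for H2-K1.

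The immunoproteasome subunits, which replace standard subunits and favour the cutting of peptides that class I molecules can hold, were lower in SAM1 and SAM2. Psmb8 had 459.3, 532.6 and 511.7 normalized counts in empty vector MEFs, 136.7, 134.3 and 113.3 in SAM1, and 200.8, 208.6 and 206 in SAM2, with log2 fold changes of −1.96 and −1.28. Psmb9, on the other strand beside Tap1, had 79.8, 86.13 and 91.12 in empty vector MEFs, 17.08, 20.74 and 15.63 in SAM1, and 19.78, 30.6 and 27.84 in SAM2, with log2 fold changes of −2.21 and −1.70. These levels rested on 16 to 33 reads a library in SAM1 and SAM2, and SAM1 and SAM2 overlapped. Psmb10, which lies away from the MHC, fell less, by 0.22 in SAM1 and 0.53 in SAM2 on the log2 scale. Together with the activator genes Psme1 and Psme2, 3 of the 5 listed genes were lower and 2 were not called in SAM1, while 3 were lower and 2 higher in SAM2. Of all genes, 36.9% were called lower in SAM1, and 35.3% were called lower and 35.2% higher in SAM2.

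Of the standard subunits, Psmb5 and Psmb6 rose in both groups. Psmb5 had 1436, 1575 and 1459 normalized counts in empty vector MEFs, 2178, 2345 and 2147 in SAM1, and 2179, 2266 and 2185 in SAM2. Its log2 fold change was 0.58 in SAM1 (adjusted p = 7.18e-08) and 0.57 in SAM2 (adjusted p = 1.05e-07). Psmb6 rose by 0.30 and 0.20 in SAM1 and SAM2. Psmb7, the other standard subunit, was called higher in SAM1 (0.31) and not in SAM2 (−0.009, adjusted p = 0.872). Pomp, the proteasome assembly factor, fell by 0.29 and 0.43, and Psme3, the gene of the nuclear activator PA28γ, fell by 0.43 and 0.28. Over 6 listed genes of this kind the comparison of 6 with 3 libraries called 2 higher and 3 lower.

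Of 10 listed ER chaperones and disulfide enzymes, 6 were called lower and 1 higher (27% and 26.8% of all genes), with a median of −0.32, and under quantile normalization 4 were called in all. P4hb, a protein disulfide isomerase, fell by 0.62 in SAM1 and 0.59 in SAM2. Uggt1, the sensor of glycoprotein folding that also edits class I peptides, fell by 0.76 and 0.54, while its paralog Uggt2 rose by 0.45 and 0.97. Of 8 listed peptidases of cytosol and endosome, 4 were called lower and none higher, a count that was 2 with libraries scaled to the same sum and without empty vector replicate 1 or replicate 2. Tpp2, a cytosolic peptidase that takes up proteasome products, fell by 0.42 and 0.41, and Ide, the insulin-degrading enzyme, fell by 0.72 and 0.21.

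Among 22 listed genes of class I transcription, 6 were called higher and 7 lower in the comparison of 6 with 3 libraries, with a median of 0.04. Stat2, a factor of type I interferon signalling, fell by 0.97 in SAM1 and 0.57 in SAM2. Irf1, an interferon-induced factor of class I promoters, was 810.2, 897.1 and 822.4 in empty vector MEFs, 772.6, 711 and 716.8 in SAM1, and 819.9, 884.6 and 828.6 in SAM2, and it was called lower in SAM1 (−0.20, adjusted p = 0.00484) and not in SAM2 (0.003, adjusted p = 0.97).

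The RFX genes, whose products bind the same promoter module as NLRC5, did not share one direction in SAM1. All of them were called higher in SAM2, as were 35.2% of all genes. Rfx5 had a log2 fold change of −0.24 in SAM1 (adjusted p = 0.00274) and 0.26 in SAM2 (adjusted p = 0.0015). Rfxank rose by 0.52 in SAM1 and 0.27 in SAM2, and Rfxap, named to complete the RFX genes, rose by 0.14 and 0.22. Ezh2, the histone H3K27 methyltransferase, rose by 0.75 in SAM1 and 0.61 in SAM2. Among 11 listed genes of interferon receptors, their kinases and inhibitors, 1 was called higher and 4 lower (26.8% and 27% of all genes), with a median of −0.02. Ifngr2, a chain of the interferon-γ receptor, fell by 0.59 and 0.34. Socs3, an inhibitor of cytokine signalling, fell by 0.35 and 0.81, and the phosphatase gene Ptpn1 rose by 0.39 and 0.35.

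Of 14 listed genes of class I trafficking and turnover, 2 were called higher and 6 lower (26.8% and 27% of all genes), a total that was 5 without empty vector replicate 2 or replicate 3. Marchf9, a ubiquitin ligase that can remove class I from the surface, had 1206, 1327 and 1179 normalized counts in empty vector MEFs, 238.2, 281.4 and 224.6 in SAM1, and 747.7, 764 and 747.9 in SAM2, and its groups did not overlap. The ligase genes Wwp2 and Marchf4 rose, Wwp2 by 0.78 and 0.21 and Marchf4 by 0.81 and 0.85, the latter at 12 to 36 reads a library. Stx4a, a syntaxin of the plasma membrane, fell by 0.62 in SAM1 and 0.65 in SAM2.

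The class II genes serve presentation to CD4+ T cells. Of 10 class II genes 3 were listed, and the α and β chains of the presenting molecules were not among them. All 3 were higher in SAM1, where 37.3% of all genes were called higher. Cd74, the invariant chain, had 246.5, 271 and 297.9 normalized counts in empty vector MEFs, 3575, 3799 and 3574 in SAM1, and 1103, 1111 and 1053 in SAM2. It rose by 3.75 in SAM1 and 2.00 in SAM2 on the log2 scale. H2-DMb1, a chain of the class II peptide editor, rose by 2.19 and 0.64. H2-DMa, the other chain of that editor, rose by 1.23 in SAM1 and fell by 0.45 in SAM2. In the comparison of 6 with 3 libraries 2 of the 3 were called higher, and 1 under the replicate block and without any 1 of the empty vector libraries. The summed level of the listed myeloid markers, carried by Cd14 and Cd68, was also highest in SAM1, while Mpeg1 was lower there than in empty vector MEFs, and their part in these values was not tested.

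**Figure D3:**
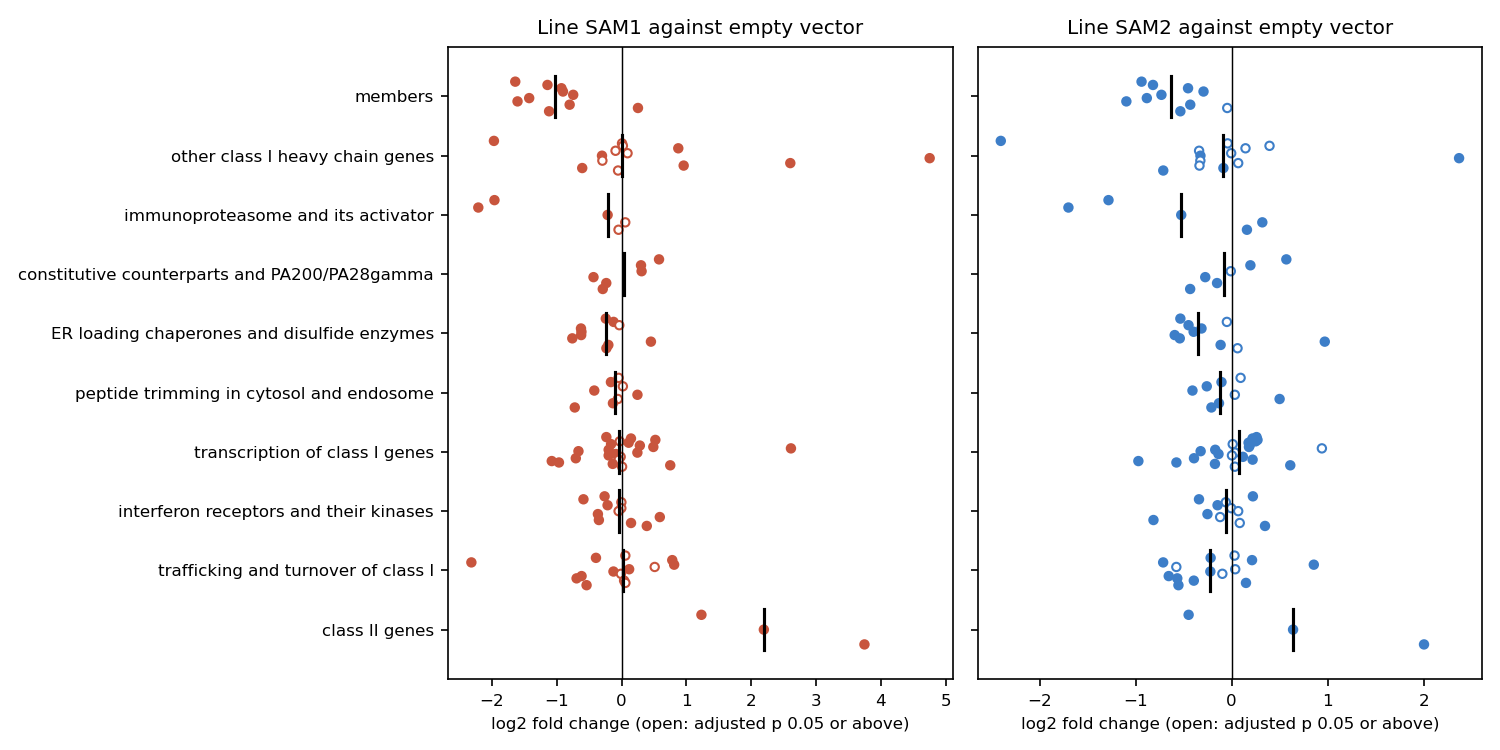
Log2 fold change against empty vector (x axis, a scale for each panel) of every listed gene in the 10 genes described here (members) and in 9 lists of the pathway (y axis), for SAM1 and SAM2. Each point is a gene, open where the adjusted p was 0.05 or above, and the black bar is the median of the list. The median of the 10 genes is −1.02 in SAM1 and −0.63 in SAM2, that of the other class I heavy chain genes is 0.01 and −0.09, and the 3 class II genes have a median of 2.19 and 0.64.

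The 7 genes on chromosome 17 lie among many genes that moved differently. The stretch from Tapbp to H2-M3 (chr17:34134873-37585384, 3.45 Mb) held 114 listed genes, of which 93 were neither among the 10 genes nor in a pathway list. The median log2 fold change of these 93 was 0.23 in SAM1 and 0.22 in SAM2, with 60 called higher and 14 lower in SAM1 and 46 higher and 13 lower in SAM2. Over all listed genes the shares were 37.3% higher and 36.9% lower in SAM1, and 35.2% higher and 35.3% lower in SAM2. Over all 710 listed genes of chromosome 17 outside the 10 genes and the lists the median was 0.14 and 0.17. Of 62 such genes within 1 Mb of H2-K1, only Angptl4 had a lower fold change than H2-K1 in SAM1 (−1.73) and in SAM2 (−1.53), and it is named because the count is 1. B2m lay on chromosome 2 among 30 genes within 1 Mb with a median of 0.53 in SAM1 and 0.36 in SAM2. Erap1 was in a stretch that was itself lower, with a median of −0.16 and −0.20 over 20 genes within 1 Mb and with none of them as low as Erap1 in SAM1 and 4 in SAM2, which were Ahrr, Ftl1-ps1, Lrrc14b and Slc6a19. Nlrc5 had 34 such genes, with a median of 0.13 and 0.12.

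**Figure D4:**
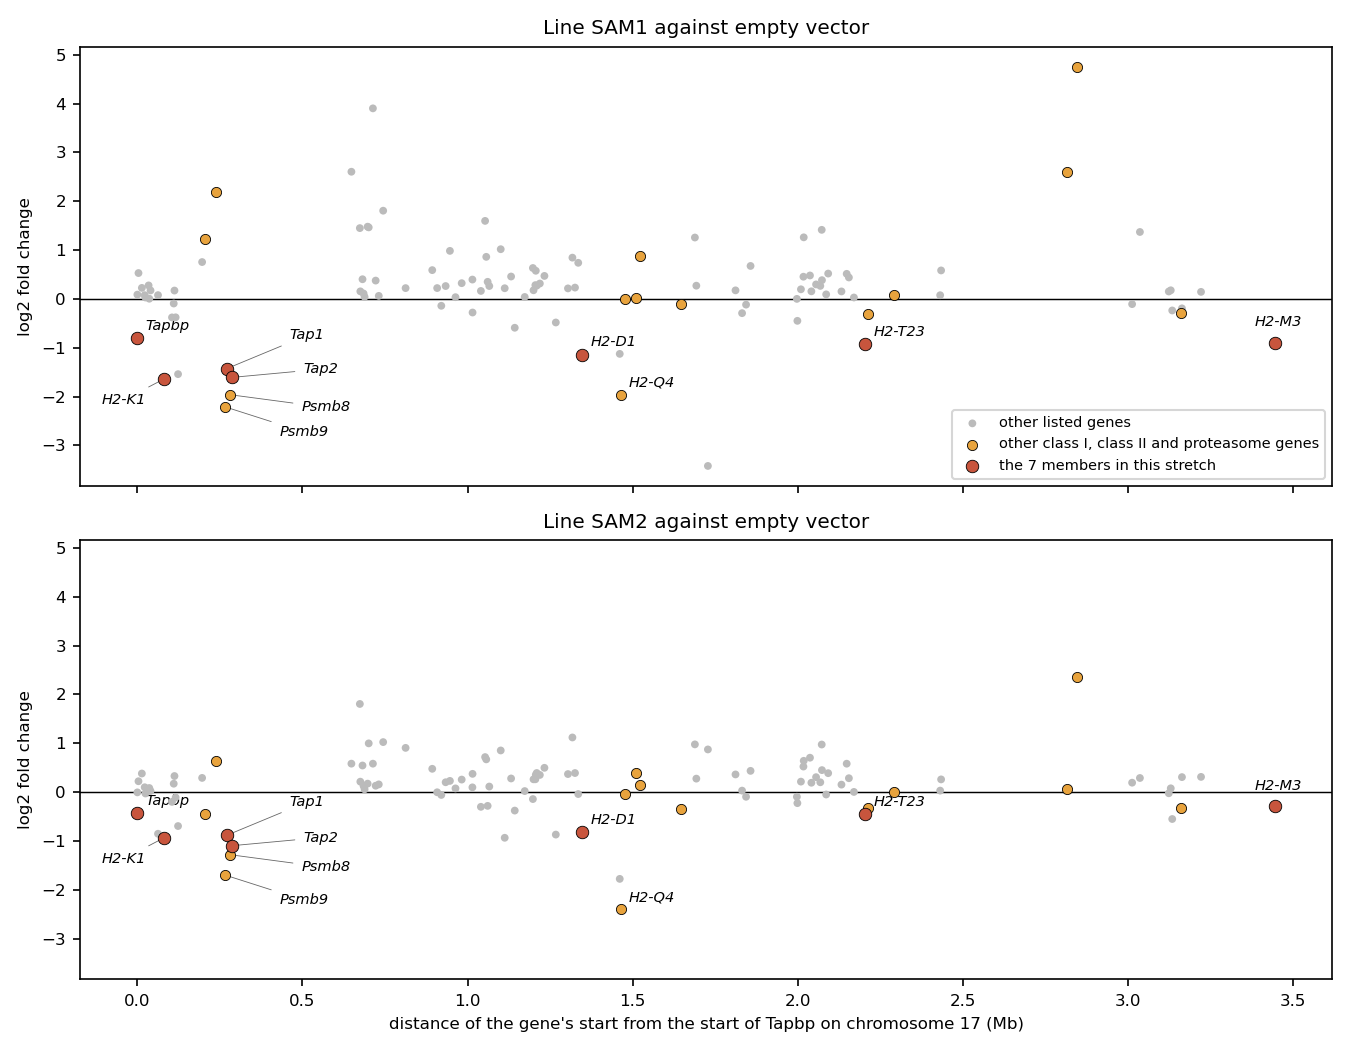
Log2 fold change against empty vector (y axis) of the listed genes between Tapbp and H2-M3 by the distance of their start from that of Tapbp (x axis, Mb), in SAM1 (top) and SAM2 (bottom). Each point is a gene. The 7 class I and loading genes lie below 0 in both panels, while the 93 genes of no list have a median of 0.23 and 0.22.

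Finally, the genes whose pattern was most like that of the mean log2 level of H2-K1, H2-D1 and B2m were sought over the 9 libraries, as a description. Outside the lists they were Xrcc5 (Pearson r = 0.9994), Ifitm3 (0.9987), Morf4l1 (0.9981), Scarb1 (0.9980) and Spcs3 (0.9980). With 3 groups of close libraries such values are common, and 226 genes (1.49% of those compared) had r above 0.99. Of the other genes described here, Tap2 had 0.997, Tap1 0.992, Tapbp 0.979, H2-T23 0.967, Erap1 0.958, H2-M3 0.902 and Nlrc5 −0.577. Psmb8 had 0.995, Psmb9 0.984, Irf1 0.632, Psmb10 0.600 and Rfx5 0.231. The log2 fold changes in SAM1 and SAM2 were −0.66 and −0.45 for Xrcc5, and −0.85 and −0.57 for Ifitm3. They were −0.73 and −0.53 for Morf4l1, −0.83 and −0.61 for Scarb1, and −1.26 and −0.92 for Spcs3.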

How the data were processed

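Per the labels and the methods of the study, the authors aligned the reads of 9 polyA+ libraries (pairs of 43 bases) to GRCm39 with TopHat2 and Bowtie2, allowing 3 mismatches and 20 multiple hits, counted them with HTSeq and divided them by DESeq2 size factors. The submitters' processing notes name FastQC (0.11.0) and SAMtools too. The deposited values are a normalized signal, not raw counts, and the authors kept genes above 10 in at least 30% of libraries. All 15184 listed genes met this. Genes below it were not analysed here.

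Groups were taken from the labels. Values were tested as log2(value + 1) with limma (3.58.1, empirical Bayes with a trend) in R 4.3.3, two-sided, with Benjamini-Hochberg adjustment over all genes and a threshold of 0.05. Fold changes are on that scale, and low genes are understated. One fit compared 6 with 3 libraries, and one fit with 3 groups compared SAM1, SAM2 and empty vector. The study used DESeq2 on counts. In all 9 libraries 100% of values were whole multiples of the worth of 1 read (tolerance 0.01 reads), so these reads were also tested with edgeR (4.0.16) and DESeq2 (1.42.0). edgeR called 8168 genes in the comparison of 6 with 3 libraries, DESeq2 8468 and limma 8179. The other alternatives were pseudocounts of 0.5 and 5, genes above 10 in every library (13171), quantile normalization, a common sum, the replicate block, limma without the trend and leaving out each library. The fits were tested on simulated data in which SAM1 and SAM2 had the same fold changes, so differences between them were not covered. Same-group libraries were further apart than sampling noise (chi-square per gene 1.45 to 12.9), so each counted once.

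The 10 genes and the lists were chosen with earlier results of these data known. By rule, the 10 genes were named with, for each list, the 2 called genes that rose most and the 2 that fell most in the comparison of 6 with 3 libraries, Psmb8, Psmb9, Psmb10, Irf1 and Rfx5, and the 5 genes most alike. A further gene that meets this rule is not reported here. Coordinates and exon overlaps are from GENCODE vM39 on GRCm39, in which 14791 of the listed names occurred once. Windows of 43 bases of each transcript were compared with all other genes' transcripts on both strands. Promoters are from RefSeq, and motifs were searched on both strands.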

Additional observations from a re-analysis of the deposited data

Results flagged for a closer look

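For 9 of the 10 genes the change against empty vector differed between SAM1 and SAM2, by limma's test of SAM2 against SAM1. SAM2 minus SAM1 on the log2 scale was 0.70 for H2-K1, 0.32 for H2-D1, 0.48 for H2-T23, 0.61 for H2-M3, 0.54 for Tap1, 0.51 for Tap2, 0.37 for Tapbp and 0.58 for Erap1, with every SAM2 library above every SAM1 library. For Nlrc5 it was −0.30, with every SAM2 library below every SAM1 library. Differences between SAM1 and SAM2 were common in the table, at 31.1% of genes called higher and 29.2% called lower in SAM2. Every SAM2 library lay above every SAM1 library in 34.8% of all genes and below in 33.4%.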

How the results depend on the processing

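The number of the 10 genes called against empty vector was 9 with all 6 libraries, 10 in SAM1 and 9 in SAM2 under each of the other pseudocounts, filters, scalings and tests, and between 8 and 9 with all 6 libraries when 1 library was left out. SAM2 against SAM1 called 9, and 10 under quantile normalization. The values that changed sign were those of Nlrc5 in SAM2 (common sum 0.057, and from −0.094 to 0.012 with 1 library left out) and of B2m between SAM2 and SAM1 (quantile normalization −0.068, common sum −0.023). The cause was not tested.

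Same-numbered libraries correlated with a mean r of 0.0531 in their deviations from the group means (9 pairs, 3 of them over 0.1) and different-numbered ones with −0.0265, and 9 of 9 libraries correlated best with their own number, a hint from the data and not the design, so pairing was not used. With the replicate block, 9, 10 and 9 of the 10 genes were called against empty vector, and over all genes 7343 in place of 8179 in the comparison of 6 with 3 libraries.

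With the replicate block the list counts that moved by over 1.5 times were class II genes (1 in place of 2) and, between SAM2 and SAM1, standard proteasome genes (5 in place of 3). In the comparison of 6 with 3 libraries, quantile normalization called 6 other heavy chain genes in place of 3 and 4 ER genes in place of 7, a common sum called 2 peptidase genes in place of 4, and leaving out empty vector libraries gave as few as 2 peptidase, 5 trafficking (of 8) and 1 class II gene. Between SAM2 and SAM1, quantile normalization called 7 interferon receptor genes in place of 4, and 3 in place of 5 immunoproteasome genes were called without SAM1 replicate 1 and 5 in place of 3 standard proteasome genes without empty vector replicate 2 or SAM1 replicate 3. The lengths used for levels per kilobase moved those levels but not the leading order of B2m and H2-D1. Depth limits Psmb9, Marchf4 and H2-M1, with 36 reads or fewer in some libraries, and the 3 libraries a group limit the rest.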
